A study of Mus musculus with 4 samples.

Results

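The AP-1 factor genes were the 10 genes Fos, Fosb, Fosl1, Fosl2, Jun, Junb, Jund, Atf3, Batf and Batf3, taken by their symbol from the GENCODE annotation of the mouse genome build mm10, out of 21755 protein-coding genes on the autosomes and chromosome X. A region bound by RBPJ was assigned to a gene when it overlapped the gene body, lay within 1 kb of a transcription start site (TSS), or had the gene's TSS as the nearest protein-coding TSS. By this rule 83 of 25454 consensus regions belonged to the 10 genes, where a consensus region is a merged interval that holds at least 1 peak of each replicate. The lists of single replicates gave 302 of 106228 peaks for replicate 1 and 142 of 47224 peaks for replicate 2.

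The peaks came from alveolar macrophages (AMs), which live in the airspaces of the lung, taken from WT mice of the C57BL/6J strain at an age of 9 wk, collected by bronchoalveolar lavage and sorted by flow cytometry in aliquots of 200000 cells. RBPJ, the nuclear effector of Notch signaling that binds DNA, was precipitated with an antibody from Abcam and libraries were made by HT-ChIPmentation, in which the adaptors are inserted into chromatin still held on the beads. The 4 libraries, 2 of RBPJ and 2 of input, had no treatment or genotype to compare, and the inputs served the authors as the control of peak calling. It is not labelled whether the replicates came from separate mice or pools of mice, so the spread between them may be technical. RBPJ regions overlapped the promoter window of 7 of 8 AM marker genes, of 1 of 3 neutrophil markers and of 0 of 4 T and B cell and 0 of 3 type II cell markers, beside 33.7% of all protein-coding genes. Occupancy is not a measure of expression.

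AP-1 is a family of dimeric transcription factors that grip DNA through a basic region and pair through a leucine zipper. JUN proteins pair with themselves or with FOS proteins, while ATF3 and the BATF proteins pair mainly with JUN partners and can redirect the complex to other sites. Fos, Fosb, Jun, Junb and Atf3 are classical immediate-early genes, switched on within minutes of a stimulus without new protein synthesis, and AP-1 sites are common in the enhancers of macrophages.

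RBPJ regions shared by both replicates overlapped the window around the start of every FOS and JUN family gene. They also overlapped that of the downstream of the 2 TSSs of Atf3, while the BATF genes had none there. Overlap does not place the summit at the start. The summit of the strongest peak lay 4628 bp after the TSS for Fos and 1734 bp for Junb in replicate 1, and 2907 bp for Jun in replicate 2. In the other replicate it lay 8, 10 and 23 bp before the TSS of these genes. A consensus region lay within 1 kb of a TSS of 8 of the 10 genes, beside 33.7% of all protein-coding genes. Batf and Batf3 were the genes without it. In replicate 1 alone 9 of the 10 genes had such a peak, beside 46.1% of all genes, and Batf3 was missing. In replicate 2 alone 9 of the 10 genes had it, beside 37.5%, and Batf was missing. Each of the 10 genes had at least 1 assigned region, beside 45.1% of all genes. No test of the list was made, because the genes were chosen by name with results of these data known.

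For 4 of the 10 genes the whole gene body lay inside 1 consensus region. These were Fos, Jun, Junb and Jund. Over all protein-coding genes this held for 35, or 0.161%. Gene length bears directly on this count, since the 4 genes are 1668 to 4235 bp long. Among the 845 genes of up to 5 kb with a region at a TSS, 32 (3.79%) lay inside 1 region. In single lists, Fos and Jun lay inside 1 peak of replicate 1, as did 25 genes in all (0.115%). Fos, Jun and Junb lay inside 1 peak of replicate 2, as did 16 genes in all (0.0735%).

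**Figure D1:**
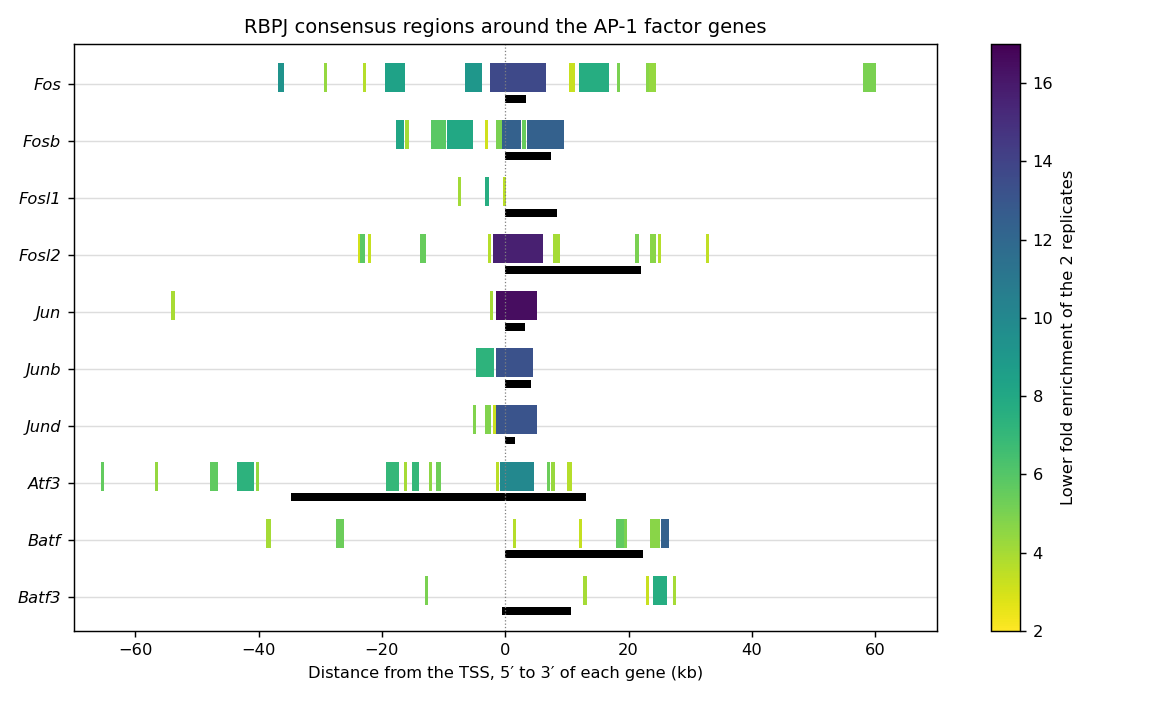
RBPJ consensus regions (colored bars) and gene bodies (black bars) of the 10 AP-1 factor genes, with a row per gene, with distance from the TSS in kb on the x axis, read in the direction of transcription; color gives the lower fold enrichment of the 2 replicates, and for Atf3 the downstream TSS is at 0. The map shows 72 of the 83 regions, the other 11 lying more than 70 kb away, and the 25 regions narrower than 0.5 kb are drawn 0.5 kb wide. Darkest bars cover the start of Jun and Fosl2, and the starts of Batf and Batf3 carry none.

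The sequences just upstream of 4 of these TSSs are shown because they hold, before the gene begins, matches to elements known from AP-1 promoters or to the RBPJ core. Each is the mm10 sequence from 320 to 21 bases before the TSS, read 5′ to 3′ on the strand of the gene. This window was set after the place of the Fos match had been seen. Capitals mark matches on either strand to 7 motifs: the AP-1 site TGANTCA, the cyclic AMP response element TGACGTCA, the RBPJ core TGGGAA and its longer form GTGGGAA, which contains it, the PU.1 site GAGGAAGT, the CEBP site TTGCNNAA, and the CArG box that binds serum response factor.
Fos, chr12:85473570-85473869, plus strand: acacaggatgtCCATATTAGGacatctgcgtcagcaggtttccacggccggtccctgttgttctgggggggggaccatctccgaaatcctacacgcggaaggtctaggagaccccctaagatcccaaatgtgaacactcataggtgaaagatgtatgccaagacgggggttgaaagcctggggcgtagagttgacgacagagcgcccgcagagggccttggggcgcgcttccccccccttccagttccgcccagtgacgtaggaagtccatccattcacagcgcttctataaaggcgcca
Fosb, chr7:19310072-19310371, minus strand: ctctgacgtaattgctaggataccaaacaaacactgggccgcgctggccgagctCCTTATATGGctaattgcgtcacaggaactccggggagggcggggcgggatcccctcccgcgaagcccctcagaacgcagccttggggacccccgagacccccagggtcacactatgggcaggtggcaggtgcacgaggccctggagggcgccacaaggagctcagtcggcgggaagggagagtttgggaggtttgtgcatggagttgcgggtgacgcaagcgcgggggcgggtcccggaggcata
Jun, chr4:95052243-95052542, minus strand: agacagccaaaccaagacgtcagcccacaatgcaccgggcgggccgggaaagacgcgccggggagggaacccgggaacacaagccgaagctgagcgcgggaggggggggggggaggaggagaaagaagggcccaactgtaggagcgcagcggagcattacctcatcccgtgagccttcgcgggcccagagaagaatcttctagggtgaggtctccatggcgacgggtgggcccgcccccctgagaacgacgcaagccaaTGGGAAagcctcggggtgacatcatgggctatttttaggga
Jund, chr8:70698629-70698928, plus strand: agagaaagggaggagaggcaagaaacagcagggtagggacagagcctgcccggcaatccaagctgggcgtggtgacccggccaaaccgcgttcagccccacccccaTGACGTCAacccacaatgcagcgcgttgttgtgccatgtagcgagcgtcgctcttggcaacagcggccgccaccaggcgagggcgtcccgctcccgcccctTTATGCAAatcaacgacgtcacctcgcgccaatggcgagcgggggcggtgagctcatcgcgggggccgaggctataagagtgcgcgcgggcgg

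In the Fos window the capitals are a CArG box from 309 to 300 bases before the TSS, and in the Fosb window another from 266 to 257 bases before it. Of 41220 windows of the same length upstream of all TSSs, 1.51% held a CArG box. The Jun window held the RBPJ core from 61 to 56 bases before the TSS, a match found in 25.1% of all windows. The Jund window held the cyclic AMP response element from 214 to 207 bases before the TSS (1.85% of all windows) and a CEBP site from 113 to 106 bases before it (11% of all windows). The core was also matched before Fosl1, at 2 places, before Batf, before Batf3 and before the upstream TSS of Atf3, while the windows of Fosl2, Junb and the downstream TSS of Atf3 held no match to any of the 7. A match is a description of the letters and no evidence of binding.

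Fos encodes the founding member of the FOS family, which must pair with a JUN protein to bind DNA. The gene (ENSMUSG00000021250.13, chr12:85473890-85477273, plus strand) is 3384 bp long and had 12 consensus regions. The widest, of 9170 bp, from 85471373 to 85480542, covered 100% of the body. The highest fold enrichment over background within it was 20.3 in replicate 1 and 13.7 in replicate 2, and the −log10 q was 77.3 and 33.3. In replicate 1 this was a single peak wider than all but 14 of the 106228 peaks of its list, and in replicate 2 the longest of 4 peaks, 6529 bp, was exceeded in width by 6 of 47224. The summits did not coincide: it lay 8 bp before the TSS in replicate 2 and 1245 bp beyond the end of the gene in replicate 1, which is 4636 bp apart.

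The other Fos regions were spread on both sides of the gene. Upstream, a region of 2717 bp with its summit 4.98 kb before the TSS reached 18-fold in replicate 1 and 9.04-fold in replicate 2, and another of 3269 bp at 18.4 kb reached 13.7-fold and 8.37-fold. The farthest upstream region, at 36.1 kb, gave nearly the same fold in both replicates, 9.39 and 9.32. Downstream, a region of 4888 bp at 15.5 kb reached 14.7-fold and 7.7-fold, and another of 2078 bp at 58.8 kb reached 15-fold and 5.02-fold. Replicate 1 gave higher values than replicate 2 throughout this locus, as it did in 67 of the 83 regions and in 72.2% of all consensus regions. Fold values of the lists are the peak caller's own, so a difference between the replicates is described here and not read as a difference in RBPJ level.

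Fosb encodes a close relative of FOS and is also induced early. The gene (chr7:19302696-19310051, minus strand) is 7356 bp long and had 9 regions in a stretch of 27.1 kb. This was the densest of the 10 genes at 33.2 regions per 100 kb, beside 0.966 over the genome. Any gene with a region in so short a stretch exceeds the genome value, so that value is no measure of the density at other genes. Of the body of Fosb 97.1% lay under 3 adjacent consensus regions, 95.4% under peaks of replicate 1 and 75.6% under peaks of replicate 2. The region at its start, 3087 bp wide, reached 17-fold in replicate 1 and 12.4-fold in replicate 2, with summits 124 bp and 50 bp after the TSS in the 5′ UTR. The region over its end tied with it in the lower fold and was higher in replicate 1, with 18.3-fold and 12.4-fold, and its summits lay 1539 bp and 1537 bp beyond the end of the gene. Another region of 4157 bp, 6.35 kb upstream, reached 17.8-fold and 8.03-fold.

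Fosl1, which encodes FRA-1, had the lowest strongest region of the 10 genes by the lower of its 2 folds, 7.66 beside 7.7 in Batf3, although in replicate 2 Batf3 was lower. The gene (chr19:5447547-5455946, plus strand) is 8400 bp long, and 1.93% of it lay under consensus regions. It had 3 regions, all upstream by their summits. The region at the TSS, 410 bp wide, reached 3.55-fold in replicate 1 and 5.36-fold in replicate 2, and it was lost when a −log10 q of at least 5 was asked of both lists. The strongest region, 2.88 kb upstream, reached 7.66-fold and 8.03-fold. Of the 9801 genes with a region, 75.7% had a weaker strongest region than Fosl1.

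Fosl2 encodes FRA-2, the FOS family member often linked to lasting rather than transient AP-1 activity. The gene (chr5:32135801-32157842, plus strand) is 22042 bp long and had 14 regions within an interval of 267 kb. Its promoter region was 8135 bp wide, at 16-fold in replicate 1 and 15.7-fold in replicate 2 and summits 10 bp and 26 bp before the TSS. The replicates thus gave nearly the same fold and place there. Single peaks of 8119 bp in replicate 1 and 6780 bp in replicate 2 made up most of it, with 19 and 3 wider peaks in the respective lists. The start of the unverified transcript Gm10463 lies within 1 kb of it. A match to the AP-1 site lay within 100 bp of the summit. None of the other 13 regions reached a fold of 10 in either replicate, and 3 of them lay more than 100 kb upstream.

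**Figure D2:**
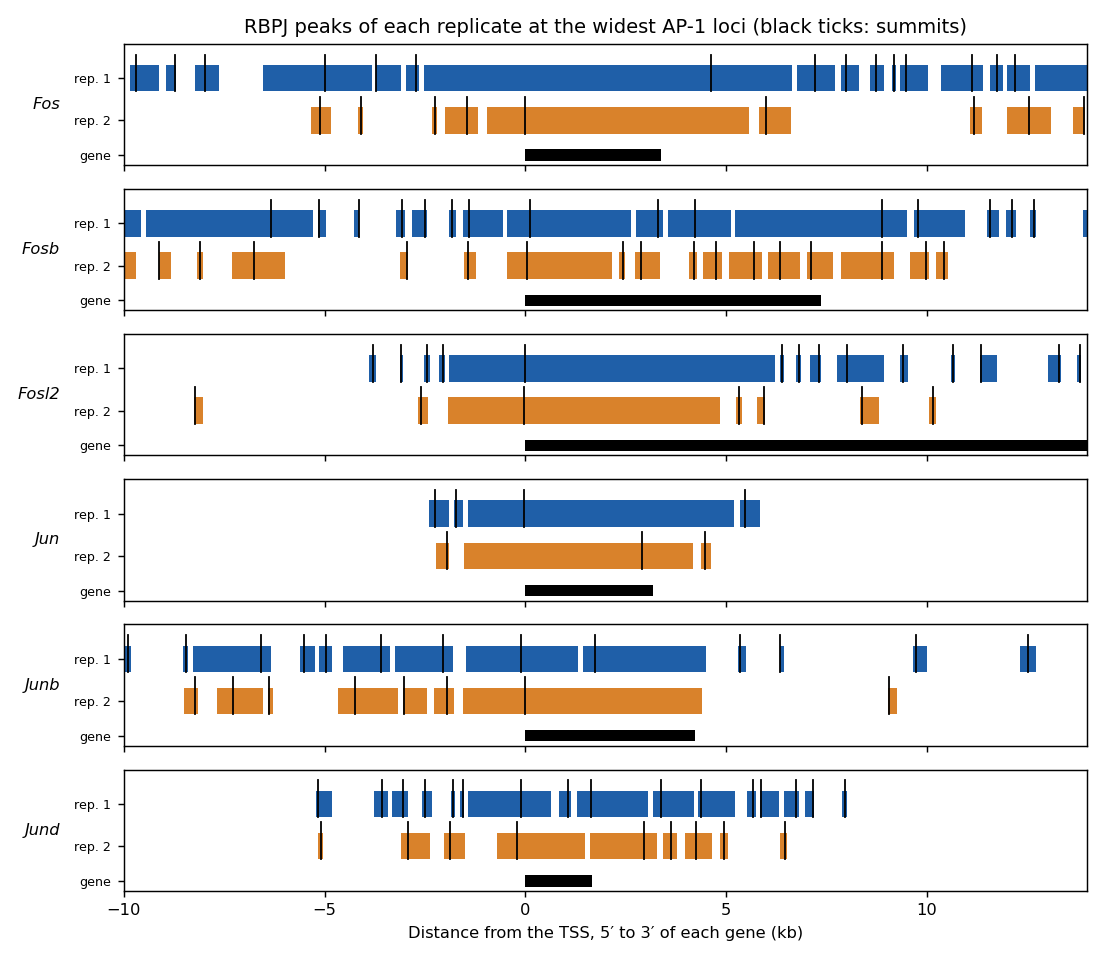
RBPJ peaks of replicate 1 (blue) and replicate 2 (orange) around Fos, Fosb, Fosl2, Jun, Junb and Jund, with gene bodies in black, summits as black ticks, and distance from the TSS in kb on the x axis, read in the direction of transcription. All peaks in the window are drawn, including any nearer to another gene. Single peaks of both replicates span Fos and Jun, Junb is spanned by a peak of replicate 2 only, and Jund is tiled by several peaks.

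Jun encodes c-JUN, the central partner of the family. The gene (chr4:95049034-95052222, minus strand) is 3189 bp long, has no intron, and had 10 regions. That of 6719 bp covered 100% of it, with a fold of 22.1 in replicate 1, the highest of the 10 genes, and of 16.5 in replicate 2, at a −log10 q of 87.2 and 44.9. Of all genes with a region, 99.6% had a weaker strongest region. The summit lay 23 bp before the TSS in replicate 1 and in the 3′ UTR, 2907 bp after the TSS, in replicate 2. The antisense transcript Junos and the noncoding Gm12703 overlap the same region, so it cannot be ascribed to Jun alone. All the other 9 regions were upstream, at a lower fold of 2.4 to 6.02, and 8 of them lay 53.9 to 178 kb away. The highest of them exceeded 74.3% of all consensus regions in the lower fold.

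Junb encodes a JUN protein that can restrain c-JUN and is needed for macrophage activation genes. The gene (chr8:84974484-84978718, minus strand) is 4235 bp long. It had only 2 regions, in an interval of 10.2 kb. The region over the gene, 6051 bp wide, had the higher fold in replicate 2, 17.1 against 13.2 in replicate 1. A single peak of replicate 2 covered the whole gene, with its summit 10 bp before the TSS and 8 wider peaks in the list. In replicate 1 there were 2 peaks there, the stronger with its summit in the 3′ UTR, 1734 bp after the TSS. The end of Prdx2 overlaps this region as well. The region upstream, 2889 bp wide, reached 8.88-fold and 7.29-fold.

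Jund encodes the most steadily expressed of the JUN proteins. The gene (chr8:70698949-70700616, plus strand) is 1668 bp long and had 4 regions. The region over it was 6644 bp wide and was tiled by 5 peaks of each replicate rather than spanned by 1, so that 78.4% of the body lay under peaks of replicate 1 and 91.8% under peaks of replicate 2. The fold was 15.2 in replicate 1 and 13.1 in replicate 2, with summits 122 bp and 218 bp before the TSS. The cyclic AMP response element printed above lies within 100 bp of both summits. The TSSs of Iqcn and the antisense Gm11175 lie within 1 kb of the same region.

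Atf3 encodes a stress-induced factor that represses inflammatory genes in macrophages. The gene (chr1:191170296-191218039, minus strand) is 47744 bp long with 2 TSSs, and its 16 regions, 10 of them in the body, were the most of the 10 genes. The downstream TSS, at 191183340, carried a region of 5543 bp where replicate 1 gave 17.3-fold and replicate 2 gave 10-fold enrichment and summits 47 bp and 12 bp after it, in the 5′ UTR. The upstream TSS, at 191218039, had no consensus region, and the only peak within 1 kb of it was in replicate 1, at 2.64-fold, above 3.08% of that list. Between the TSSs, the region 18.1 kb before the downstream one reached 19.3-fold and 7.03-fold, and another at 14.7 kb reached 13.5-fold and 7.03-fold. In replicate 1 the former exceeded the region at the downstream TSS. Replicate 1 also had 62 regions at this gene with no peak of replicate 2, while replicate 2 had 0 of its own.

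Batf encodes a factor without an activation domain that pairs with JUN proteins and cooperates with IRF factors. The gene (chr12:85686669-85709087, plus strand) is 22419 bp long and had 8 regions, 4 of them in the body. At its TSS replicate 1 alone had peaks, of 5.07-fold with the summit 153 bp after the TSS and of 3.81-fold at 653 bp, while replicate 2 had none. Its strongest region lay beyond the 3′ end, 26.1 kb from the TSS. It was 1218 bp wide and reached 20.3-fold in replicate 1 and 12.4-fold in replicate 2, above 99.9% and 99.2% of the peaks of the lists. The summits were 3655 bp and 3823 bp beyond the end of the gene.

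Batf3 encodes a relative best known from cross-presenting dendritic cells. The gene (chr1:191097847-191108945, plus strand) is 11099 bp long, and it was the only gene of the 10 with no region in its body, 0% of which lay under peaks of either replicate. Near its TSS replicate 2 alone had a peak, of 5.69-fold, 700 bp upstream. Its 5 regions included 4 downstream, the strongest of them 2258 bp wide and 25.6 kb from the TSS, with 11.5-fold and 7.7-fold. Of all genes with a region, 75.8% had a weaker strongest region.

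**Figure D3:**
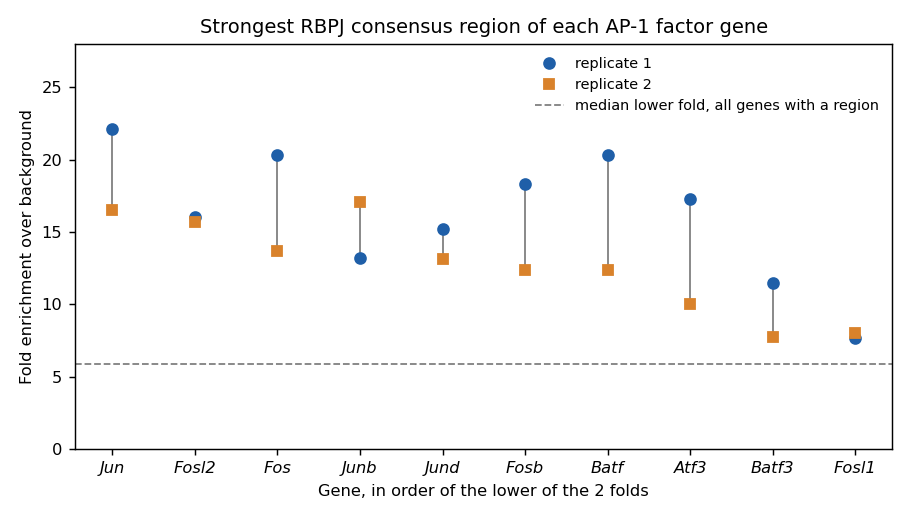
Fold enrichment over background of the strongest consensus region of each of the 10 genes in replicate 1 (blue circles) and replicate 2 (orange squares), in order of the lower of both values; the dashed line is the median lower fold of the strongest regions of all 9801 genes with a region, 5.84. By the lower fold, the measure of the line, all 10 genes lie above it, from 7.66 in Fosl1 to 16.5 in Jun.

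Set side by side, the strongest regions of the 10 genes had a median lower fold of 12.8, against 5.84 over the 9801 genes with a region. The median gene of the 10 exceeded 97.5% of those genes. A strongest region is the maximum over all regions of a gene, and the 10 genes held 2 to 16 each. Counting regions with the gene as nearest TSS, each had more than 78.5% to 99.3% of all protein-coding genes. How far the number of regions bears on the folds was not tested. Jun was highest in replicate 1 and next to highest in replicate 2, and Fosl1 and Batf3 were lowest in both. In between, the order depended on the replicate: Junb was highest in replicate 2 at 17.1 but exceeded only Batf3 and Fosl1 in replicate 1 at 13.2. The strongest region overlapped the 1 kb window of a TSS in 6 of the 10 genes (Fos, Fosl2, Jun, Junb, Jund and Atf3). Its summit lay outside that window in replicate 1 for Fos and Junb and in replicate 2 for Jun. The strongest region was upstream in Fosl1 and lay 3′ of the gene in Batf and Batf3. In Fosb the regions at the TSS and over the 3′ end tied in both the lower fold and the lower −log10 q, and the latter was taken as the strongest. Ranking by −log10 q instead of fold named the same region in 10 of 10 genes, this tie included. Within a list the fold and the −log10 q rise closely together, so this ranking is not an independent check. Across all 83 regions, in contrast, the median lower fold was 4.69, the same as for all consensus regions, and 41 of the 83 lay above it.

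Some regions of these genes were wide. No list of problematic genome regions and no read or input coverage was used here, so the wide and whole-gene regions could not be checked against the signal itself. Of the 83, 11 were wider than 3 kb, beside 2.15% of all consensus regions, and they belonged to Fos and Fosb (3 each), Fosl2, Jun, Junb, Jund and Atf3 (1 each). The median width was 751 bp against 593 bp over all regions. The share of the gene body under consensus regions fell with gene length over all genes with a region at a TSS, from a median of 25% at up to 2 kb to 9.83% between 2 and 5 kb, 5.28% between 5 and 10 kb and 1.75% between 20 and 50 kb. Against the class of their own length, Fos, Jun, Junb and Jund stood at 100%, Fosb at 97.1%, Fosl2 at 35.9%, Atf3 at 26.9% and Batf at 9.41%, all above the upper quartile of the class. Fosl1 was at 1.93%, below the median of its class, and Batf3 at 0%. Batf and Batf3 had no consensus region at a TSS, so they are set beside classes that do not include them.

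**Figure D4:**
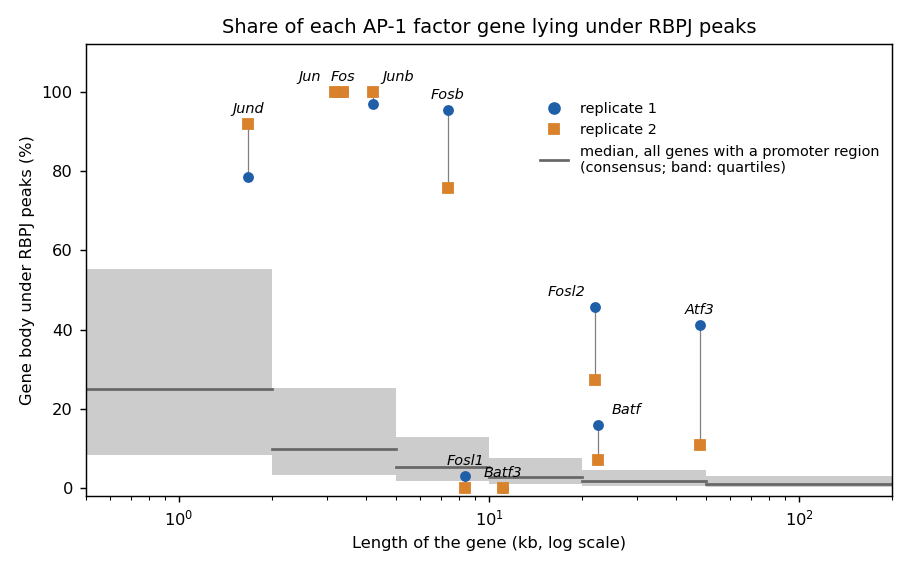
Percent of the gene body lying under peaks of replicate 1 (blue circles) and of replicate 2 (orange squares) against gene length on a log axis; grey lines and bands are the median and quartiles of consensus coverage over all genes with a region at a TSS in each length class. Both points are at 100% for Fos and Jun, where the circle is hidden by the square, and both are at 0% for Batf3.

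By the summit of the replicate with the higher fold, 48 of the 83 regions were upstream of their gene, 18 inside it and 17 downstream. For 57 the assignment rested on the nearest TSS alone. Of the 83, 37 had the summit more than 20 kb from the TSS placed at 0 in the map. For Atf3 this is the downstream TSS, and the 6 Atf3 regions counted lie nearer its upstream TSS. In Jun and Fosl2, 10 of the 37 were more than 100 kb away. Jun and Fosl2 also had the largest intervals, 289 and 267 kb, and the lowest densities, 3.46 and 5.24 regions per 100 kb. The value over the genome, 0.966, also counts the stretches of genes with no region. The strongest peaks of the replicates had their summits within 100 bp of each other in 38 of the 83 regions, with a median gap of 125 bp. Besides the 83, 206 merged regions at these genes had peaks of replicate 1 only and 18 of replicate 2 only.

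**Figure D5:**
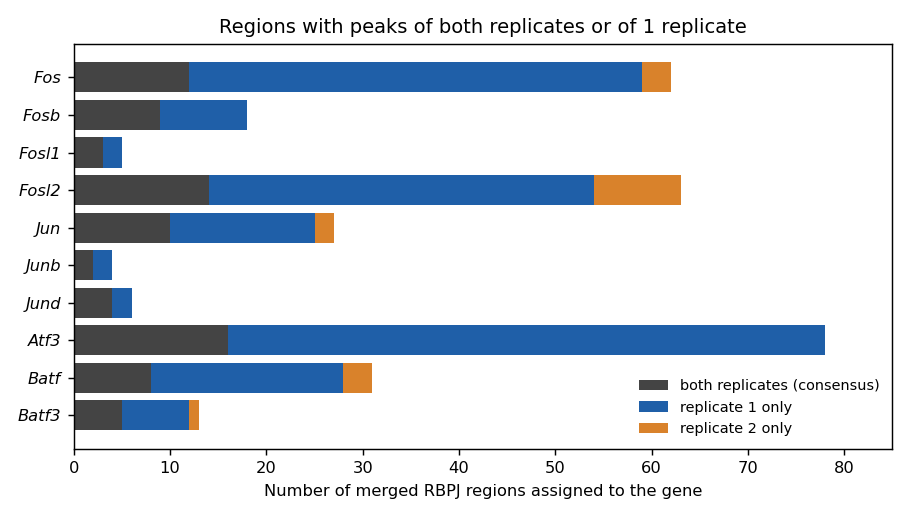
Number of merged RBPJ regions assigned to each of the 10 genes, split into regions with peaks of both replicates (grey), of replicate 1 only (blue) and of replicate 2 only (orange). Atf3 has 16 regions of both replicates and 62 of replicate 1 only, and Fosl2 has the most of replicate 2 only, 9.

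Some of the genes are neighbors. Fos and Batf lie 209 kb apart on chromosome 12, with Jdp2 as the only protein-coding gene between them, and 21 consensus regions lay from the start of Fos to the end of Batf. Jdp2, which encodes a repressor that pairs with JUN, had 8 regions, the strongest at its TSS with 7.36-fold in replicate 1 and 9.37-fold in replicate 2. Batf3 and Atf3 lie 61.4 kb apart on chromosome 1 with Fam71a between them. From the start of Batf3 to the upstream TSS of Atf3, a span of 120 kb that holds both genes, lay 14 regions. The strongest Batf3 region and the Atf3 regions thus share 1 neighborhood, and the nearest TSS is a convention that does not say which gene a distal region serves.

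Distal regions are shown by the 100 bases either side of the summit of the replicate with the higher fold, on the strand of the gene and with the same capitals. The Fos region 36.1 kb upstream held 2 matches to the AP-1 pattern TGANTCA, in which N is any base. These read TGAATCA and TGAGTCA. The downstream region of Batf3 held an AP-1 and a CEBP site, and the strongest Batf region held none of the 7 motifs. The summit of the other replicate lay 128 bp away in the Fos region, 985 bp in the Batf3 region and 168 bp in the Batf region.
Fos distal region, chr12:85437737-85437937, plus strand: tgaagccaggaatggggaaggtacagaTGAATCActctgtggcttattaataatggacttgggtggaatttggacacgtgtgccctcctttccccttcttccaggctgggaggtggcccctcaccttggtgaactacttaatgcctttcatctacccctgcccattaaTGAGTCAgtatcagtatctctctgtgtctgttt
Batf3 downstream region, chr1:191123838-191124038, plus strand: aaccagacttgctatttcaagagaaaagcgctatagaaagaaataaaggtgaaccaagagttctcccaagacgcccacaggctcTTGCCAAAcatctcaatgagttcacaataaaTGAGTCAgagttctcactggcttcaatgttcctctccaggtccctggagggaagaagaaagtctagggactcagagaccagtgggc
Batf downstream region, chr12:85712642-85712842, plus strand: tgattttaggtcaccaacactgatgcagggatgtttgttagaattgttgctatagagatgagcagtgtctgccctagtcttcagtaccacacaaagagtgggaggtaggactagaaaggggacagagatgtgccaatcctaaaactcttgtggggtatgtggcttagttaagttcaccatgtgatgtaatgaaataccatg

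Near the summit, 8 of the 83 regions (9.64%) held the AP-1 site, beside 9.3% of all 25454 regions. The RBPJ core TGGGAA was matched in 17 (20.5%) beside 18.8%, and its longer form GTGGGAA in 5 (6.02%) beside 4.64%. The CEBP site was matched in 14 (16.9%) beside 14.3%, the PU.1 site in 5 (6.02%) beside 6.53% and the cyclic AMP response element in 1 (1.2%) beside 0.998%. The CArG box was matched in 0 beside 1.26%, the boxes of Fos and Fosb lying outside the windows of their summits. All these shares were near those of all regions. The 5 regions with the longer RBPJ core lay 22.7 kb upstream and 23.5 kb downstream of Fos, 23.1 kb upstream of Fosl2, 2.05 kb upstream of Junb and in an intron of Atf3, 12 kb before its downstream TSS. None was the strongest of its gene, and 3 are shown for the place of the core relative to the summit, which is the middle base. This place holds for the replicate with the higher fold only. The summit of the other replicate lay 124 bp away in the Fos region, 2204 bp in the Junb region and 245 bp in the Atf3 region.
Fos downstream region, chr12:85497307-85497507, plus strand: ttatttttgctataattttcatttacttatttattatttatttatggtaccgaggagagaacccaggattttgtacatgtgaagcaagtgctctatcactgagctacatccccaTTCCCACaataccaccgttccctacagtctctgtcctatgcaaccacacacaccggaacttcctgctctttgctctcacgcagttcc
Junb upstream region, chr8:84980666-84980866, minus strand: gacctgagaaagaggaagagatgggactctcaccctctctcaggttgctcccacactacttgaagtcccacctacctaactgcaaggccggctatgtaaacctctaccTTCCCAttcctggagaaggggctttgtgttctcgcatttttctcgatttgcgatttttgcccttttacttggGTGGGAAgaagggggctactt
Atf3 intronic region, chr1:191195267-191195467, minus strand: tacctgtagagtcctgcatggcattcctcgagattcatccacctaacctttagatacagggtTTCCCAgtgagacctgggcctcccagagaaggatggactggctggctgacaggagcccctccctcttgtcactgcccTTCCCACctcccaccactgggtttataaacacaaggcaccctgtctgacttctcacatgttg

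Genes around the pathway were read from lists of names, beside 33.7% of all genes with a region at a TSS and 45.1% with any region. Of 9 other bZIP factors, 8 had a region at a TSS and 9 had an assigned region. The highest were Atf4, the integrated stress response factor (15.5-fold and 11.2-fold in replicates 1 and 2), Crem, a cyclic AMP responsive factor (13.4-fold and 10.7-fold), and Creb1, whose strongest region lay 158 kb upstream (16-fold and 9.37-fold). None of the 9 lay inside a region.

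Of 17 kinases and serum response regulators, which act upstream of AP-1, 10 had a region at a TSS and 13 any region. The highest were Map3k1, a kinase at the head of the JNK cascade, with an intronic region of 13.7-fold and 13.4-fold, Mapk3, which encodes ERK1, with 9.89-fold and 12.7-fold, and Mapk14, which encodes p38α, with 17.3-fold and 9.37-fold. Elk1, Map2k2, Map2k6 and Mapk8 had no region. Of 9 textbook AP-1 target genes, 4 had a region at a TSS and 7 any region. Cd44, the hyaluronan receptor, had 45 regions, the strongest at 21.8-fold and 12.2-fold, Plaur, the urokinase receptor, 18.3-fold and 10.4-fold, and Spp1, which encodes osteopontin, 11.2-fold and 7.7-fold. The protease gene Mmp13 and its inhibitor gene Timp1 had none. No gene of these 3 lists lay inside 1 region.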

How the data were processed

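RBPJ libraries and inputs were sequenced by the authors, who per the labels and the study's methods demultiplexed reads with bcl2fastq (version 2.20.0.422), trimmed them with Cutadapt, aligned them to mm10 with Bowtie2, filtered them with SAMtools and called peaks in each library against input with MACS3 (q threshold 0.05). Each deposited peak has a fold enrichment at its summit, a −log10 p, a −log10 q and a display score. The score and −log10 p were not used. Read depth is unknown from the lists, and the sequencing quality data that the paper provides were not used, so no interval was given.

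Overlapping peaks (1 bp or more) were merged, and merged intervals with a peak of each list formed the consensus. Each region carried the highest fold of each list, and the lower of both ranked it. TSSs and gene bodies came from basic GENCODE transcripts and sequence from GRCm38 (mm10), with coordinates counted from 1. Motifs were searched up to 100 bp either side of summits, on both strands. The steps were tested on simulated peaks and ran in Python 3.11.15 with numpy 2.4.6. The genes, the other lists and the rule for names (the 3 highest and up to 3 genes with no region per list, besides neighbors sharing a region) were chosen with earlier results of these data known. Mapk8, which had no region either, is outside that rule. Alternatives changed the q threshold, list length, summit distance, transcripts, window sizes and nearest TSS rule.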

Additional observations from a re-analysis of the deposited data

How the results depend on the processing

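Each of the 10 genes kept at least 1 region under every alternative run. The count with a region at a TSS ranged from 6 to 9: asking that any pair of summits of both replicates in a region, not only those of the strongest peaks, lie within 100 bp gave 6 and lost Fos and Jun, a −log10 q of at least 5 gave 7 and lost Fosl1, as did shortening list 1 to the length of list 2, and comprehensive transcripts or a 3 kb window gave 9 and added Batf. Regions assigned fell from 83 to 44 with a −log10 q of at least 5, to 43 with summits within 100 bp, to 43 with the nearest TSS of any gene type and to 50 with a limit of 20 kb. Without a replicate, they ranged from 142 to 302. Genes inside 1 region fell from 4 to 2 (Junb and Jund) with summits within 100 bp, and ranged from 2 to 3 without a replicate: Fos and Jun in replicate 1 alone, these and Junb in replicate 2 alone. Regions with an AP-1 site went from 8 to 3 within 50 bp of the summit (5.16% of all regions) and to 30 over the whole region (24.3% of all regions). No paired analysis was possible because the results come from no test and the inputs have no peak list. With 2 libraries and read depth not taken into account, a missing peak is not evidence that RBPJ was absent.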

Other observations

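The 35 protein-coding genes lying inside 1 consensus region, 31 of them outside the AP-1 list, included others chosen here after their values were seen. Ier2, Btg2, Zfp36 and Klf6 are, like Fos and Jun, known as rapidly induced genes, and Mcl1 encodes a short-lived survival factor. Cd14, Cd68 and Mpeg1 are macrophage genes, and Fth1 and Ftl1 encode the chains of ferritin. Of the 35, 13 were longer than 2 kb, among them Fos, Jun and Junb, and 9 carried predicted or clone names. Whether these genes share a cause for their wide regions was not tested.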
